A study of Mus musculus with 8 samples.

Results

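Connexins are the subunits of gap junctions, the channels that join the cytoplasm of neighbouring cells. A set of 7 connexin genes used by glia and neurons was followed here in Sox2-positive and Sox2-negative cells of mouse medulloblastoma: Gjc3, Gjb1, Gja1, Gjb6, Gjb2, Gjd2 and Gjc1. The genes were chosen from the gap junction family by the neural cell type that normally uses each, with earlier results of these data known. All 7 were measured, each by 1 probe set with a single gene symbol, among 22180 genes in all.

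Cells were sorted from medulloblastomas of mice bred from Patched1+/- CD1 and Sox2eGFP B6 parents, irradiated with 3 Gy as newborns and aged over 70 days. Both fractions came from such tumours after removal of CD45+ (white blood) and Ter119+ (red blood) cells, and differed by the eGFP signal of the Sox2 reporter. The Sox2-positive and the Sox2-negative fraction had 4 arrays each, and each array held RNA of a pool of 3 tumours. Normal brain and unsorted tumour were not analysed here.

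Connexin subunits can assemble into a half-channel in the membrane of one cell, which can dock with a half-channel of the next. Ions and small metabolites then pass between the cells. In the brain the subunits divide by cell type. Oligodendrocytes, the myelin-forming cells, use Cx29 (Gjc3) and Cx32 (Gjb1), among others. Astrocytes use Cx43 (Gja1), Cx30 (Gjb6) and Cx26 (Gjb2), and form a coupled network among themselves and with oligodendrocytes. Neurons use Cx36 (Gjd2) at electrical synapses, and Cx45 (Gjc1) is found in neurons, vascular smooth muscle and other cells.

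The proximal promoters of the 2 members that passed the test below are shown because these genes were both higher in Sox2-positive cells. RefSeq promoter windows of 300 bases (250 before to 50 after the start, build GRCm38.p6) were found for 6 of the 7 members. The Gjc3 window lies at chr5:137963049-137963348 on the minus strand and the Gja1 window at chr10:56377050-56377349 on the plus strand. Capitals mark matches, on either strand, to the letters ACAAAG or ACAATG (recognised by SOX factors), CAGATG or CAGCTG (E-boxes, read by bHLH factors such as Olig2) and TGAGTCA (read by AP-1, the Fos and Jun dimer). These motifs were chosen after the sequences had been seen.
Gjc3: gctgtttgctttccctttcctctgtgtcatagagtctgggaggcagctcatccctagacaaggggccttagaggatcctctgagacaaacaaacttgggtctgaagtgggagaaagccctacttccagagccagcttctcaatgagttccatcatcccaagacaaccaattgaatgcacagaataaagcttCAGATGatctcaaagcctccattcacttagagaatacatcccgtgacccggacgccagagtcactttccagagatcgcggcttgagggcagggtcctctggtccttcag
Gja1: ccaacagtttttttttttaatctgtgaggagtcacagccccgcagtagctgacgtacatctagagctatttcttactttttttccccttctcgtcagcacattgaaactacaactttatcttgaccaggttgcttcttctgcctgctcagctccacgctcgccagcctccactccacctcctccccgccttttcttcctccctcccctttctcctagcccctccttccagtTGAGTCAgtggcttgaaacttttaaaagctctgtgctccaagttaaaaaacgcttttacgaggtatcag
The Gjc3 window held 1 match, the E-box CAGATG, from 59 to 54 bases before the start. The Gja1 window held 1 match, TGAGTCA, from 19 to 13 bases before the start. E-boxes of these 2 forms occurred in 30.6% of the 32851 windows of the same length and TGAGTCA in 5.20%. Neither of the 2 windows held ACAAAG or ACAATG. Among the 6 members with a window these strings occurred for Gjb1 alone, in 2 of its 4 windows, against 28.6% of all windows. Other forms of SOX site were not searched for. A match is a string of letters and was not tested for binding.

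Arrays of the same fraction correlated at 0.973 or more and arrays of different fractions at 0.968 or less. At an adjusted p under 0.05, 10 of 10 oligodendrocyte progenitor genes, 4 of 10 mature oligodendrocyte genes and 7 of 10 astrocyte genes were higher in Sox2-positive cells, and 8 of 8 granule neuron lineage genes and 4 of 9 neuronal genes were lower. For other cells that use connexins, 0 of 7 endothelial, 0 of 4 ependymal, 0 of 4 choroid plexus and 0 of 6 microglial genes passed. Of these, 5 endothelial, 3 ependymal, 1 choroid plexus and 4 microglial genes were dim in all 8 arrays, so a difference may be missed. Dim means under 5.80, the upper quartile of olfactory and vomeronasal receptor genes. Of the pericyte list 1 of 6 (Rgs5) and of the meningeal fibroblast list 1 of 7 (Ptgds, with groups that overlapped) were higher. Of the Schwann cell list 1 of 3 was higher (Pmp22, which other cells also express). Over all genes 8.47% passed (5.96% higher, 2.52% lower), so 0 or 1 in lists this short says little about these cells. Markers of red blood cells were not analysed here.

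Of the 7 connexins, 2 were higher in Sox2-positive cells and 0 were lower, where 8.47% of all genes passed the test (5.96% higher, 2.52% lower). The 2 genes were Gjc3, 17.1-fold higher, and Gja1, 1.69-fold higher. The median log2 difference of the 7 was 0.20, beside -0.03 over all genes. Groups did not overlap for 2 of the 7, beside 13.7% of all genes. These were Gjc3 and Gja1 again. With 7 genes, these counts describe the list and were not tested against other lists. The list was chosen with earlier results of these data known, that of Gjc3 included. Its counts are therefore no independent evidence about connexins.

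**Figure D1:**
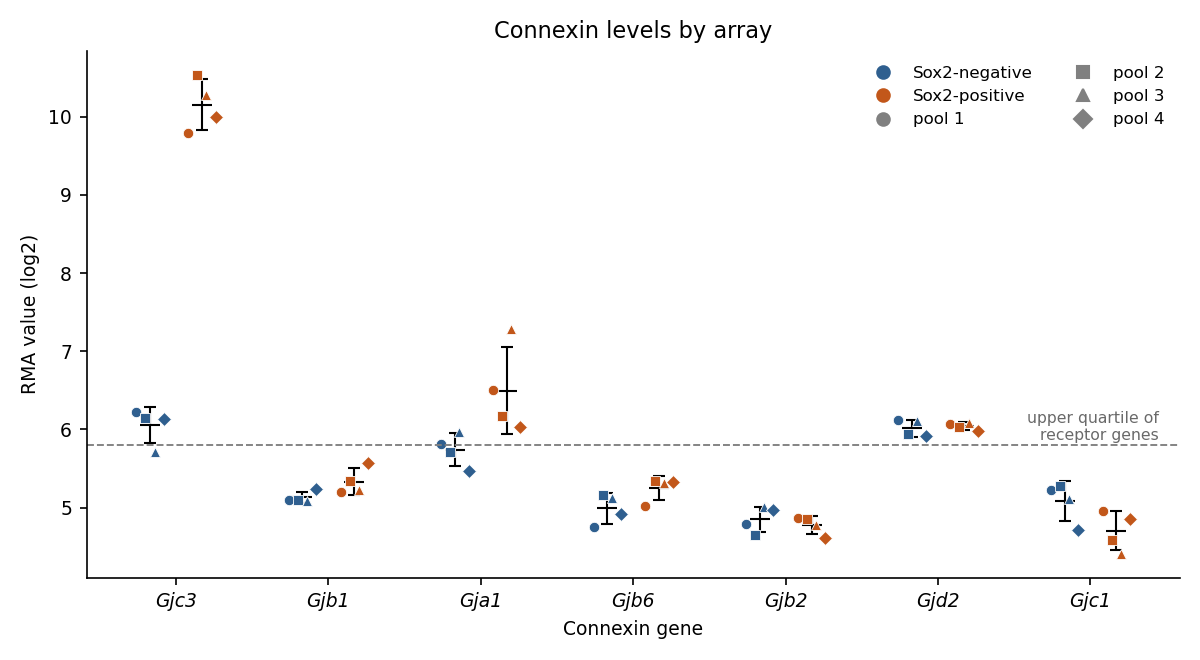
RMA values (log2, vertical axis) of the 7 connexin genes in each array, Sox2-negative in blue and Sox2-positive in orange, with a marker shape for each pool, the group mean as a horizontal bar and its SD as the error bar (n = 4). The dashed line is the upper quartile (5.80) of olfactory and vomeronasal receptor genes, a guide to dim values. Gjc3 moves from about that line to 9.79 or above in all 4 Sox2-positive pools, Gja1 lies between 6.03 and 7.28 there, and the values of the other 5 genes overlap between the groups.

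Of the oligodendrocyte connexins, Gjc3 was higher in Sox2-positive cells and Gjb1 did not pass the test. Gjc3 encodes Cx29, which oligodendrocytes and Schwann cells make. Channels and coupling between cells were not measured here, so these data do not show whether Cx29 joined cells. The log2 values of Gjc3 in Sox2-positive pools 1 to 4 were 9.79, 10.54, 10.28 and 9.997. In Sox2-negative pools 1 to 4 they were 6.23, 6.14, 5.71 and 6.14. Each Sox2-positive pool lay more than 3 units above each Sox2-negative pool. The means were 10.15 ± 0.33 and 6.05 ± 0.23 (log2 value ± SD, n = 4 each), a log2 difference of 4.10 (SE 0.16, 95% interval 3.76 to 4.43, limma adjusted p = 3.37e-09). On the linear scale the interval ran from 13.6-fold to 21.6-fold. The Sox2-negative values lay close to the guide to dim values (5.80), so the fold may be understated. By size of increase Gjc3 ranked 4 among the 22180 genes. The difference lay between 3.97 and 4.22 when each array was left out in turn. In bulk samples such as these, fewer cells of a type and less RNA per cell cannot be told apart.

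Gjb1 encodes Cx32, the subunit of myelinating oligodendrocytes and Schwann cells. Its values were 5.20, 5.34, 5.22 and 5.57 in the Sox2-positive pools and 5.10, 5.10, 5.08 and 5.24 in the Sox2-negative pools. The groups overlapped, since Sox2-negative pool 4 lay above Sox2-positive pools 1 and 3. By number, the Sox2-positive pool was higher in 4 of 4 pairs, by 0.10, 0.24, 0.14 and 0.33. The log2 difference was 0.20 (SE 0.10, 95% interval -0.01 to 0.41) and did not pass the test (limma adjusted p = 0.279; 0.202 with the replicate block).

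All 8 values of Gjb1 lay under 5.80, the upper quartile of 1373 olfactory and vomeronasal receptor genes that these cells are not known to use. The table gives no detection call, so this quartile served as a guide to dim values. Of the 7 connexins 4 lay under it in all 8 arrays, namely Gjb1, Gjb6, Gjb2 and Gjc1. A difference of such a gene may be understated if its probe set was at background.

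The log2 difference of Gjc3 was compared with that of each other member through the per-array difference of both probe sets, over 6 pairs. It exceeded that of Gjb1 by 3.90 (95% interval from limma 3.54 to 4.25) and that of Gja1 by 3.34 (2.78 to 3.91). For the other four the excess was 3.83 (Gjb6), 4.07 (Gjd2), 4.17 (Gjb2) and 4.48 (Gjc1). Since Gjb1, Gjb6, Gjb2 and Gjc1 lay under the guide to dim values in all arrays, their excess is one of probe set values and may be overstated. Gjd2 lay close above the guide, at 5.91 to 6.12, so the same may hold for it. The Sox2-negative values of Gjc3 and Gja1 also lay near the guide, so their own differences may be understated. In all 6 pairs the 4 Sox2-positive arrays lay above the 4 Sox2-negative arrays (exact permutation test, two-sided, p = 0.0286 before and after Benjamini-Hochberg adjustment over the 6 pairs), which is the smallest p that 4 arrays against 4 can give. With exact sign changes within the 4 numbers, which keep the pairing, each of the 6 gave p = 0.125 (two-sided), the smallest that 4 numbers allow, and so could not pass. Gjc3 had been singled out in earlier results of these data, and its values enter all 6 pairs. Its groups lay more than 3 units apart, and the largest difference of another member was 0.75 (Gja1). The permutation p was therefore all but fixed beforehand and is no independent evidence of the direction of Gjc3.

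Among the astrocyte connexins, Gja1 was higher and Gjb6 and Gjb2 did not pass. Gja1 encodes Cx43, the most widely used connexin, found in astrocytes and radial glia and also in endothelium, meninges and ependyma. Its values in Sox2-positive pools 1 to 4 were 6.50, 6.17, 7.28 and 6.03, and in Sox2-negative pools 1 to 4 they were 5.81, 5.72, 5.96 and 5.47. The groups did not overlap, but the gap between the lowest Sox2-positive and the highest Sox2-negative pool was small, and Sox2-positive pool 3 stood above the other three. The means were 6.50 ± 0.56 and 5.74 ± 0.21 (n = 4 each), a log2 difference of 0.75 (SE 0.22, 95% interval 0.29 to 1.22, limma adjusted p = 0.0469). The Sox2-negative mean lay just under the guide to dim values, so the difference may be understated.

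The call of Gja1 was close to the threshold. It was lost without Sox2-positive pool 1 or 3 or any 1 of the 4 Sox2-negative pools (adjusted p = 0.05003 to 0.133), and with array weights (0.0709). Without Sox2-positive pool 3 the log2 difference was 0.49 (adjusted p = 0.0570), and without Sox2-positive pool 4 it was 0.91 (0.0198). With the replicate number as a block it passed by more (adjusted p = 0.00277), as Gja1 was higher in the Sox2-positive pool for 4 of 4 numbers, by 0.69, 0.46, 1.32 and 0.56.

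**Figure D2:**
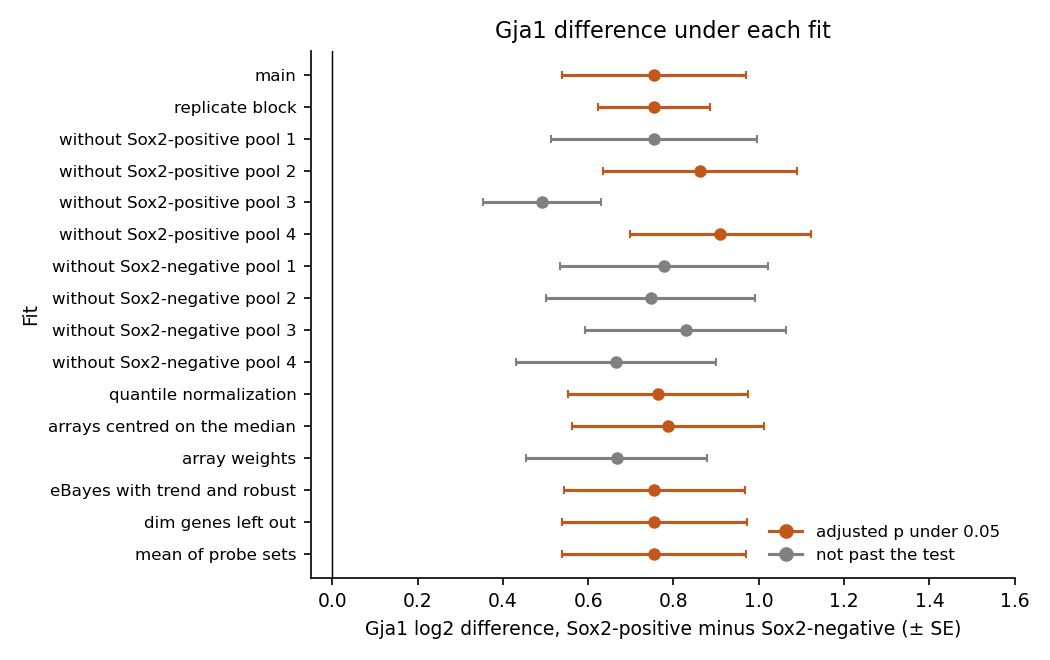
Log2 difference of Gja1, Sox2-positive minus Sox2-negative (horizontal axis, point ± SE), in the main fit and in 15 other fits (rows), orange where the adjusted p was under 0.05 and grey where it was not. All values lie above 0, from 0.49 without Sox2-positive pool 3 to 0.91 without Sox2-positive pool 4, and 7 of the 15 other fits did not pass.

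Gjb6 encodes Cx30, a connexin of mature grey matter astrocytes. It was at 5.02, 5.34, 5.31 and 5.33 in the Sox2-positive pools and at 4.75, 5.17, 5.12 and 4.92 in the Sox2-negative pools. Sox2-positive pool 1 lay below Sox2-negative pools 2 and 3, and the other three Sox2-positive pools above all Sox2-negative ones. By number, the Sox2-positive pool was higher in 4 of 4 pairs, by 0.28, 0.18, 0.19 and 0.41. The log2 difference of 0.26 (SE 0.11, 95% interval 0.02 to 0.51) did not pass the test over all genes (unadjusted p = 0.0369, limma adjusted p = 0.208; 0.09 with the replicate block).

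Gjb2 encodes Cx26, found in astrocytes and leptomeningeal cells. Its values were 4.86, 4.86, 4.77 and 4.61 in the Sox2-positive pools and 4.78, 4.65, 5.001 and 4.96 in the Sox2-negative pools. The groups overlapped, although Sox2-positive pool 4 lay below every Sox2-negative pool. The log2 difference was -0.07 (95% interval -0.29 to 0.15, limma adjusted p = 0.758). Gjb2 and Gjb6 are neighbours on chromosome 14, and Gja3, the next gene on the other side of Gjb2, had a log2 difference of -0.06 (adjusted p = 0.789). None of these 3 neighbours passed the test.

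Neither of the connexins used by neurons passed the test. Gjd2 encodes Cx36, the subunit of electrical synapses. It was at 6.07, 6.03, 6.08 and 5.98 in the Sox2-positive pools and at 6.12, 5.93, 6.10 and 5.91 in the Sox2-negative pools. All 4 Sox2-positive values lay within the Sox2-negative range, and the log2 difference was 0.03 (SE 0.09, 95% interval -0.16 to 0.21, limma adjusted p = 0.918). The values of Gjd2 lay close above the guide to dim values (5.80), so a difference may be understated.

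Gjc1 encodes Cx45. Its values were 4.95, 4.59, 4.41 and 4.85 in the Sox2-positive pools and 5.22, 5.28, 5.11 and 4.72 in the Sox2-negative pools. Sox2-negative pool 4 lay within the Sox2-positive range and the other three lay above it. The log2 difference was -0.38 (SE 0.14, 95% interval -0.69 to -0.07) and did not pass over all genes (unadjusted p = 0.0186, limma adjusted p = 0.136). Without Sox2-negative pool 4 it was -0.50 and passed (adjusted p = 0.0363). All other fits with Gjc1 left it above the threshold (adjusted p = 0.0778 to 0.336).

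**Figure D3:**
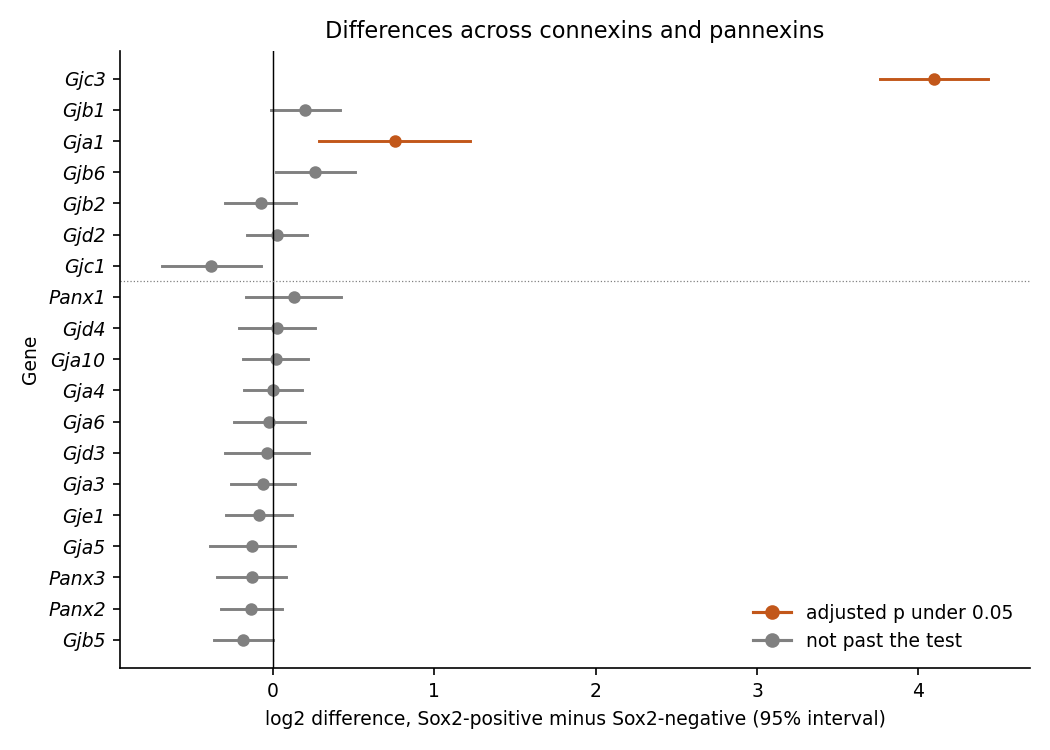
Log2 difference (horizontal axis, point with 95% interval) between Sox2-positive and Sox2-negative cells for the 7 connexins described here (above the dotted line) and for 12 other connexins and pannexins (below it), orange where the adjusted p was under 0.05. Gjc3 at 4.10 and Gja1 at 0.75 are the 2 genes past the test, and the 12 others lie between -0.18 and 0.13.

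None of the other channel genes measured passed the test. Of 16 other connexin and pannexin genes 12 were measured, and 0 were higher or lower at an adjusted p under 0.05 in limma (0 at an unadjusted p under 0.05), with a median log2 difference of -0.05. Over all genes 8.47% passed, a share that 0 of 12 is near. The largest difference was that of Gjb5, an epithelial connexin, at -0.18 (SE 0.08, 95% interval -0.37 to 0.0004, adjusted p = 0.25). Gja4, the Cx37 gene of arterial endothelium, had a log2 difference of 0.003 (95% interval -0.18 to 0.18). Of these 12 genes 7 lay under the guide to dim values in all 8 arrays. The pannexins, which form single-membrane channels and no gap junctions, had log2 differences of 0.13 (Panx1), -0.13 (Panx2) and -0.13 (Panx3).

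Genes whose products bind or modify connexins were described by lists taken from textbook knowledge. These lists were chosen with earlier results of these data known, so their counts are no independent evidence. Of 12 junction and connexin-binding genes measured, 2 were higher and 0 lower, with a median log2 difference of -0.03. Cav1, the caveolar protein that binds Cx43, was 2.18-fold higher (log2 difference 1.13, SE 0.11, limma adjusted p = 2.18e-05). Its values ran from 6.56 to 6.96 in the Sox2-positive and from 5.45 to 5.75 in the Sox2-negative pools. The Sox2-negative values all lay under the guide to dim values, so the fold may be understated. Tjp1 encodes ZO-1, the scaffold that binds the end of Cx43 and anchors gap junction plaques. It was 1.32-fold higher (log2 difference 0.40, SE 0.11, limma adjusted p = 0.0353), with groups that overlapped, and its call was lost without 6 of the 8 arrays in turn, all except Sox2-positive pool 4 and Sox2-negative pool 2 (0.0632 to 0.117).

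Of 9 kinase genes measured whose products phosphorylate connexins, 2 were higher and 0 lower, with a median of -0.04. Prkca, the protein kinase C alpha gene, was 2.08-fold higher (log2 difference 1.06, SE 0.12, limma adjusted p = 8.34e-05), at 6.94 to 7.54 against 6.09 to 6.37. Src, the tyrosine kinase that closes Cx43 channels, was 1.32-fold higher (log2 difference 0.40, SE 0.09, limma adjusted p = 0.0161), a call lost without Sox2-positive pool 2 (0.0614). For both lists the background is the 8.47% of all genes that passed.

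Within the Sox2-positive group, Gjc3 and Gja1 were highest in different pools. Gjc3 was highest in pool 2 (10.54) and lowest in pool 1 (9.79). The mean of the 10 oligodendrocyte progenitor genes was 9.44 in pool 2, 9.17 in pool 3, 9.01 in pool 4 and 8.79 in pool 1, the same order as Gjc3. Pool 2 was the highest of the 4 for 8 of these 10 genes and for 9 of the 10 mature oligodendrocyte genes, whose mean was 6.96 there and 6.01 to 6.38 in the other pools (in the order 4, 3 and 1, which is not that of Gjc3). In Sox2-negative pools the progenitor mean lay between 6.15 and 6.24 and the mature mean between 5.59 and 5.75. The log2 difference of Gjc3 without Sox2-positive pool 2 was 3.97.

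Gja1 was highest in pool 3 (7.28), and so were 10 of the 10 astrocyte genes. Their mean was 7.52 in pool 3, 7.17 in pool 2, 7.09 in pool 1 and 6.92 in pool 4, and 6.16 to 6.26 in the Sox2-negative pools. The orders differed in the middle, as Gja1 was higher in pool 1 than in pool 2 and the astrocyte mean was higher in pool 2 than in pool 1. Pool 3 was also highest for 7 of 9 neuronal genes and for 4 of 8 granule neuron lineage genes. The mean of the 7 endothelial genes was 5.21 to 5.27 in the Sox2-positive and 5.27 to 5.39 in the Sox2-negative pools, that of the 7 meningeal fibroblast genes was 5.45 to 5.69 and 5.49 to 5.54, and that of the 4 ependymal genes was 5.35 to 5.49 and 5.40 to 5.59. All of these endothelial, meningeal fibroblast and ependymal means lay under the guide to dim values (5.80). The part of each marker set in the connexin differences was not tested.

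**Figure D4:**
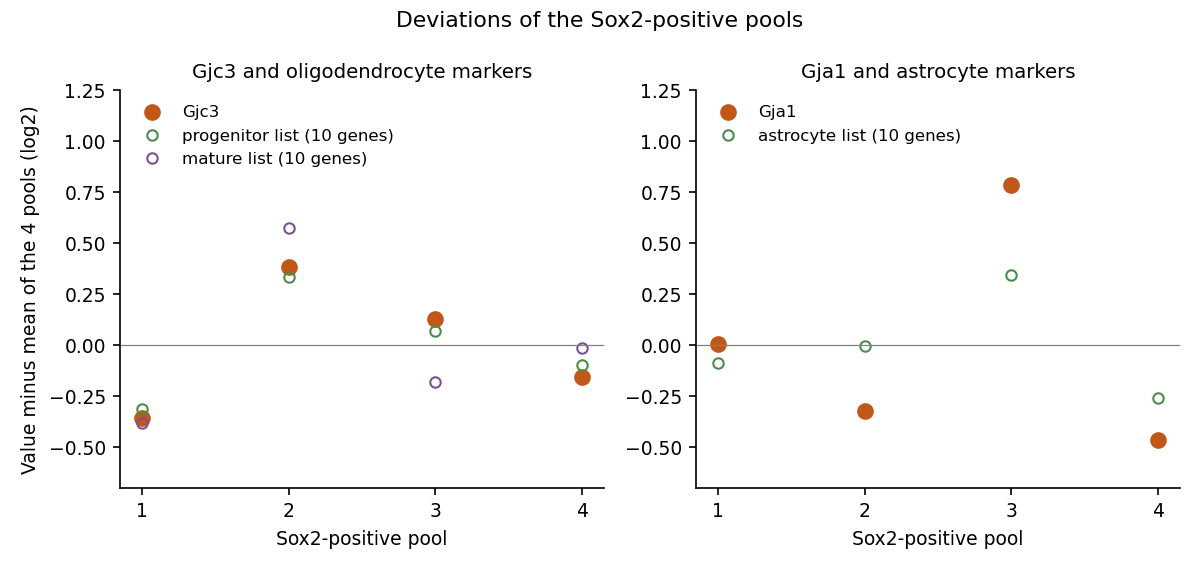
Deviation of each Sox2-positive pool (horizontal axis) from the mean of the 4 pools (vertical axis, log2), for Gjc3 with the means of the 2 oligodendrocyte lists (left) and for Gja1 with the mean of the astrocyte list (right). Gjc3 and both oligodendrocyte lists are highest in pool 2, and Gja1 and the astrocyte list are highest in pool 3. With 4 pools no correlation was computed.

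The genes whose pattern over the 8 arrays was most like that of Gjc3 were named by the root mean square difference between values centred on each gene's mean. The nearest was Tnr, the tenascin-R gene of oligodendrocytes, at 0.17 log2 units. Next came Sulf2, a heparan sulfate sulfatase (0.25), Olig1, a transcription factor of the oligodendrocyte lineage (0.26), Cspg5, a proteoglycan gene (0.28), and Slc38a3, a glutamine transporter gene (0.37). Of the Sox2-positive pools, pool 2 was highest for Tnr, Sulf2, Olig1 and Cspg5, as for Gjc3, and pool 3 for Slc38a3. Pool 1 was lowest for Tnr, Sulf2 and Olig1, as for Gjc3, and pool 4 for Cspg5 and Slc38a3. These genes were picked for their likeness over the same arrays, so this is a description.

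For Gja1 the nearest gene was Nid1, which encodes the basement membrane protein nidogen (0.11 log2 units). The next were St6galnac5, a sialyltransferase gene (0.17), and Lfng, a glycosyltransferase that modifies Notch receptors (0.18). All 3 were highest in Sox2-positive pool 3, at 7.63, 7.22 and 8.01, as was Gja1. St6galnac5 was higher in Sox2-positive cells (log2 difference 0.75, limma adjusted p = 0.0238), a call lost without Sox2-negative pool 1, 3 or 4 (0.0515 to 0.0707). Nid1 and Lfng had log2 differences of 0.64 and 0.55 and missed the threshold (0.0555 and 0.0575), and both passed with the replicate block (0.00911 and 0.0178).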

How the data were processed

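Affymetrix arrays were hybridised with RNA of 4 Sox2-positive and 4 Sox2-negative pools. The authors deposited 1 log2 value per probe set and array, and the submitters' processing notes name Affymetrix Expression Console 1.2.0.20 and RMA. RMA corrects the background, normalizes between arrays and compresses differences of dim genes. That the scale is log2 follows from the range of the values (2.51 to 13.6). The genome build used for the probes is not given in the sources used here. Of 41345 probe sets 23521 carried 1 gene symbol in the platform annotation. For each of 22180 genes the probe set with the highest mean over the 8 arrays was taken, with no filter.

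Differences were tested with limma (version 3.58.1, under R 4.3.3; lmFit and eBayes, group as the only term), two-sided, with Benjamini-Hochberg adjustment over all genes and a threshold of 0.05. The procedure was tested on simulated data, drawn with independent noise for each array, which did not include any pairing of pools. The labels call the pools of a fraction biological replicates. Each limma p-value sets a difference against the spread between these pools. The main fit did not pair the pools. Pools of equal number were paired only in the replicate block, the sign changes and the differences by number. This pairing rested on the data alone, as the labels do not say so. Deviations of equal-numbered pools from the group means correlated at 0.164, 0.114, 0.177 and 0.241, each over 0.1. The highest correlation between different numbers was 0.161, which is higher than that of number 2 (0.114) and close to that of number 1 (0.164). The number of arrays limits the precision.

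The members and lists were chosen with earlier results of these data known. Besides the 7 members, the text names up to 4 members past the test from each of the other connexin, junction and kinase lists, or the 1 with the largest difference, Gja4 and Tjp1 in every case, and the 5 genes most like Gjc3 and the 3 most like Gja1, without predicted gene models. Other genes (Rgs5, Ptgds, Pmp22, Gja3 and the pannexins) were named after their values had been seen. Alternatives were the replicate block (and, for Gjc3 against each other member, exact sign changes within numbers, added after seeing the data), leaving out each array, quantile normalization, median centring, array weights, a variance trend with robust eBayes, leaving out dim genes and the mean of probe sets.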

Additional observations from a re-analysis of the deposited data

Results flagged for a closer look

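In 24 named genes, each group of 4 pools was examined for 1 pool far from the others, by a gap above Dixon's 95% critical value. Chance gives about 1 in 20 such groups, and 3 of 48 were found. Sox2-negative pool 4 stood apart for Gjb1 (5.24, against 5.08 to 5.10 in the other three). Sox2-positive pool 1 stood apart for Gjb6 (5.02, against 5.31 to 5.34). Sox2-negative pool 3 stood apart for Pmp22, a myelin gene (6.18, against 4.80 to 4.88).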

How the results depend on the processing

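Over 15 other fits Gjc3 kept its direction and its call, with log2 differences of 3.97 to 4.22. Leaving out each array in turn, Gja1 ranged from 0.49 to 0.91, Gjc1 from -0.50 to -0.28, Gjd2 from -0.011 to 0.059 and Gja4 from -0.023 to 0.037, so the sign of the last 2 is not fixed. Over the same 8 fits 1 to 2 members were higher and 0 to 1 lower, 1 to 2 junction genes and 1 to 2 kinase genes were higher, and 309 to 591 of all genes were lower. With array weights Gja1 was at 0.67 (not past the test), Gjd2 at -0.0081, and 1 member was higher. The cause was not tested. The replicate block changed the calls of Nid1 and Lfng and no other call among the members, the other connexin, junction and kinase lists and the genes named from them or for their likeness (Gjc3 adjusted p = 1.56e-08). Its effect on the marker lists and the other genes named was not examined. With exact sign changes within numbers (replicate block), chosen after seeing the data, the excess of Gjc3 over Gjc1 (4.48), Gja1 (3.34), Gjb1 (3.90), Gjb2 (4.17), Gjb6 (3.83) and Gjd2 (4.07) did not pass, since p cannot go below 0.125. The median log2 difference over all genes moved by 0.03 with median centring and by 0.03 with quantile normalization. Gjc1, Gjb1, Gjb2 and Gjb6 have no value with dim genes left out. Low signal limits these 4 genes.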
